A study of Mus musculus with 2 samples.

Results

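The squamous lineage transcription factors described here are Trp63, Grhl1, Grhl2, Grhl3, Ovol1, Ovol2, Zfp750, Tfap2a, Tfap2c and Prdm1, which lie outside the SOX and KLF families. They were chosen by symbol, as 10 of the 29456 genes that had a probe set with a single gene symbol. Each of the 10 had 1 such probe set. Their RNA was measured in squamous organoids of the mouse forestomach, whose lining in rodents is stratified squamous epithelium. The SOX2 KO organoids came from mice of genotype Krt5CreER/+; Sox2Δ/Δ; ROSA26tdTomato/+, in which Cre expressed from the Krt5 locus in squamous cells deletes Sox2 and switches on the tdTomato reporter after tamoxifen. The control organoids were labelled WT control and came from mice described as wild type, and the study states that its control littermates carried no Krt5CreER/+ allele. Neither age nor passage is given. Each group had 1 Affymetrix Mouse Gene 2.0 ST array. No difference below therefore has a replicate check or a test, genotype cannot be told apart from mouse, culture or array, and Cre or tdTomato expression cannot be told apart from loss of Sox2.

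These factors act at successive steps of a stratified epithelium. p63, the product of Trp63, marks the basal layer and is needed for squamous epithelia to form, and the AP-2 factors act with it in early keratinocytes. Grainyhead-like factors open and activate genes of cell junctions and barrier, OVOL zinc finger proteins hold epithelial cells in the epithelial state and out of the mesenchymal one, and Zfp750 and Prdm1 act late, as cells leave the cell cycle and form the outer layers. SOX2 is coexpressed with p63 in basal cells of the foregut, and the comparison bears on which of these factors stay at the same RNA level when SOX2 is lost.

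The targeted gene followed its label. Sox2 had a log2 signal of 2.53 in the SOX2 KO array and 5.74 in the WT control array, a difference of -3.21 as deposited. Signals are log2 values deposited by the authors, and every difference is SOX2 KO minus WT control. In place of replicate error, 1127 olfactory receptor genes, taken here as unexpressed, give a background: 95% of their values lay below 3.84, and their differences had an SD of 0.26. The SOX2 KO value of Sox2 lay below that level, so the deposited difference is not an exact size, and set against the level Sox2 was at least 3.72-fold lower. The floor was the median signal of all genes, 3.30, and 15983 genes reached it in 1 array or both. These had a median difference of 0.00, with 5% below -0.56 and 5% above 0.66. All 8 squamous markers (Krt5, Krt14, Krt15, Krt13, Krt4, Dsg3, Dsp and Perp) exceeded the background level in both arrays. Of these, 2 were higher and 6 lower in SOX2 KO, with a summed linear signal of 3122.0 in SOX2 KO and 4177.0 in WT control. Their median difference was -0.315, and they ran from -1.36 for Krt13 to 1.23 for Krt15. All 6 smooth muscle markers were higher in SOX2 KO, with a summed linear signal of 314.5 in SOX2 KO and 79.5 in WT control, and 4 of them (Acta2, Myh11, Cnn1 and Actg2) by 2-fold or more as deposited. The sum of the 8 fibroblast markers was 145.3 in SOX2 KO and 86.6 in WT control, with Dcn at 5.90 in SOX2 KO and 2.83 in WT control. Without Dcn the sum was 85.5 in SOX2 KO and 79.5 in WT control. Of 5 endothelial markers none exceeded background in SOX2 KO and 1 did in WT control, with sums of 48.2 in SOX2 KO and 53.9 in WT control. The summed signal was 215.9 in SOX2 KO and 174.8 in WT control for 5 leukocyte markers, 347.7 and 312.8 for 13 gastric and columnar markers, and 64.9 and 65.7 for 7 intestinal markers. The part of these cells in the differences below was not tested, and fewer cells of a type cannot be told apart from less RNA per cell.

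None of the transcription factors differed by 2-fold or more as deposited. Of the 9 that passed the floor, 0 were higher and 0 lower in SOX2 KO by that much, where 2.01% of all genes above the floor were 2-fold higher and 0.795% 2-fold lower. At 1.5-fold, 0 were higher and 1, Ovol1, was lower as deposited, beside 6.45% and 4.43% of all genes. The SOX2 KO value of Ovol1 lay below background, and counted by bounds against that level 0 were lower by 1.5-fold. These bounds are the smallest falls the values allow, so larger falls of Ovol1 and Prdm1 stay possible. A fall of Ovol2 or Tfap2c would not be visible. Over all 10 genes, 4 had a higher and 6 a lower signal in SOX2 KO, and 8 differed by less than the receptor SD of 0.26. Differences this small were common, as the median absolute difference of all genes above the floor was 0.22. The 8 include Ovol2 and Tfap2c, whose small differences carry no information because both arrays lay below background. The median difference was -0.13 over the 9 above the floor and -0.085 over all 10, against 0.00 for all genes. The exceptions to the small differences were Ovol1 and Prdm1, both lower in SOX2 KO. Both arrays exceeded the background level for 6 of the genes, the WT control array alone did for Ovol1 and Prdm1, and neither did for Ovol2 and Tfap2c.

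**Figure D1:**
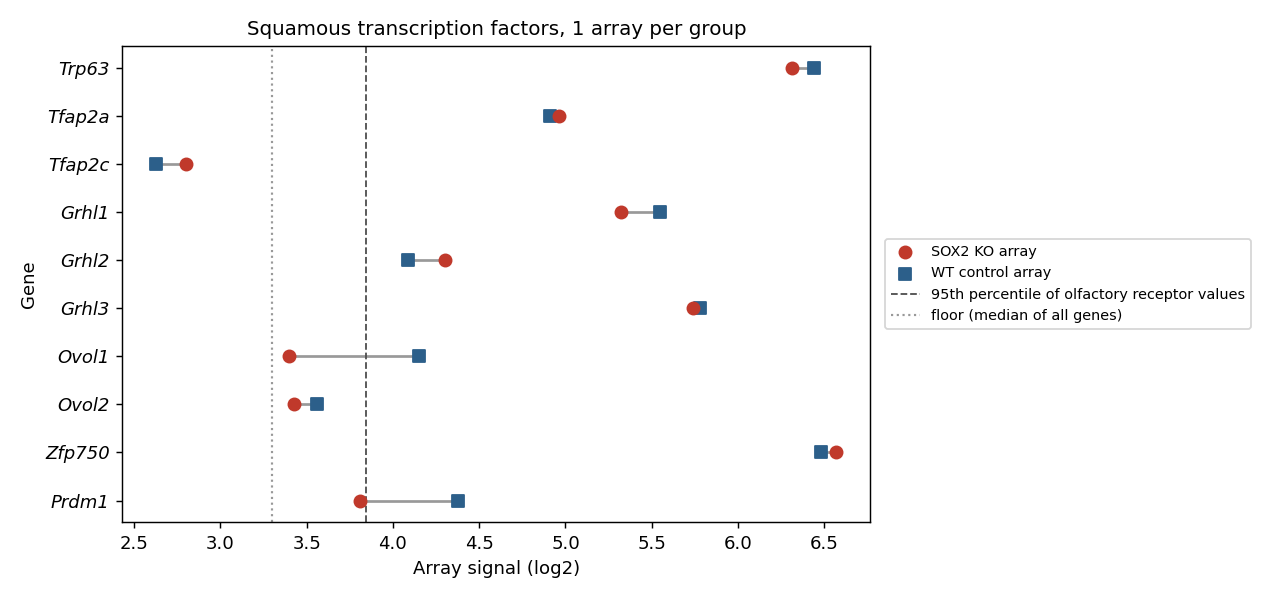
Log2 array signal (x axis) of each transcription factor (rows) in the SOX2 KO array (circles) and the WT control array (squares), 1 array each and so without error bars; the dashed line is the background level of 3.84 and the dotted line the floor of 3.30. The paired points lie close together except for Ovol1 and Prdm1, whose SOX2 KO points fall below the dashed line and whose WT control points lie above it.

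Promoter sequence is shown for Prdm1, 1 of the 2 genes with the largest differences and the one of them with an entry in the RefSeq promoter table (GRCm38.p6, the assembly that mm10 names), and for Grhl1, a factor whose RNA differed little. Of the 10 genes, 5 had entries, with 7 annotated starts between them. Each sequence is the 250 bases before a start, read 5′ to 3′ on the gene's strand, and capitals mark a match to an AP-2 motif (GCCNNNGGC). The Prdm1 window is chr10:44458749-44458998 on the minus strand, before a start inside the gene (44437174 to 44528558), and the Grhl1 window is chr12:24572037-24572286 on the plus strand.
Prdm1: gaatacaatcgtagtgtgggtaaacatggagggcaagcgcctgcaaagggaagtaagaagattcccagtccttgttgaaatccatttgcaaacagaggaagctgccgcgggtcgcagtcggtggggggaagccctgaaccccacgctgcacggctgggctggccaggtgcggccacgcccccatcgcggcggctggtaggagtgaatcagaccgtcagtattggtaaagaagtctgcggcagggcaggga
Grhl1: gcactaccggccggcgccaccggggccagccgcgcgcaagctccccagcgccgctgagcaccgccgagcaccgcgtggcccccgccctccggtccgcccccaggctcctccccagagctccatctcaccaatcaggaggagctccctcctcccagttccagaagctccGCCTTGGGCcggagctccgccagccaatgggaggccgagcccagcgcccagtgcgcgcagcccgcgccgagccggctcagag

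The Grhl1 window held 1 AP-2 match, GCCTTGGGC, at 82 to 74 bases before the start. The Prdm1 window held no match to that motif, to the SOX core (ACAAAG or ACAATG), to a grainyhead site (AACCGGTT) or to an OVOL site (CCGTTA), searched on both strands. The other 5 windows, of Grhl1 (the second start), Grhl3, Ovol2 and Tfap2a (both starts), also held none of the 4 motifs. Over 32851 promoter windows of the same length, 13.7% held the AP-2 motif, 25.2% the SOX core, 0.116% the grainyhead site and 2.18% the OVOL site. No 2 of these motifs overlapped in the windows shown. These are matches of letters and not binding sites, and distal elements lie outside the windows.

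Of the basal and early factors, Trp63 and Tfap2a were close to level, and Tfap2c was below the floor. Trp63, which encodes the p63 proteins, had a signal of 6.31 in SOX2 KO and 6.44 in WT control, a difference of -0.13. Of all genes above the floor, 69.4% differed by as much or more. Its probe set spans chromosome 16 from 25683763 to 25892102 on the plus strand (mm10), which is the whole gene, and it is annotated to 8 curated RefSeq transcripts. The 2 promoters of Trp63 make isoforms with and without a transactivation domain, and 1 value over the whole gene does not separate them. Tfap2a, which encodes AP-2 alpha, was 4.96 in SOX2 KO and 4.91 in WT control, a difference of 0.05 that turned to -0.01 when the arrays were scaled to equal quantiles. The Tfap2a probe set lies on chromosome 13 (40715675 to 40733823, minus strand), within the longer RefSeq gene (40713802 to 40738238). For the genes below, the coordinates given are those of the probe set. Tfap2c, which encodes AP-2 gamma (chromosome 2, 172549593 to 172558622, plus strand), was 2.80 in SOX2 KO and 2.63 in WT control. Both values lie below the floor, so the arrays do not show whether Tfap2c RNA differed.

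The 3 grainyhead-like genes differed little and not in the same direction. Grhl1, a factor of desmosome genes in skin, was 5.32 in SOX2 KO and 5.55 in WT control, a difference of -0.23 (chromosome 12, 24572287 to 24617391, plus strand). Grhl2, which controls E-cadherin and claudin genes in epithelia, was 4.30 in SOX2 KO and 4.09 in WT control, a difference of 0.21 (chromosome 15, 37233036 to 37363569, plus strand). Grhl3, needed for the epidermal barrier and for wound closure in mice, was 5.74 in SOX2 KO and 5.78 in WT control, a difference of -0.04 (chromosome 4, 135541888 to 135573630, minus strand). Each of the 3 exceeded the background level in both arrays. Their absolute differences were matched or exceeded by 48.8%, 52.1% and 91.9% of the genes above the floor for Grhl1, Grhl2 and Grhl3.

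Of the OVOL genes, Ovol1 was lower in SOX2 KO, and Ovol2 was below background in both arrays and cannot be compared with it. Ovol1, whose product represses progenitor genes such as Myc as keratinocytes leave the cell cycle, was 3.40 in SOX2 KO and 4.15 in WT control. The deposited difference was -0.75, a 1.68-fold lower value, and the deposited values of 5.96% of all genes above the floor differed by as much or more in either direction. The SOX2 KO value lay below the background level, and Ovol1 was at least 1.24-fold lower when set against that level. The size beyond that bound, and the order of Ovol1 and Prdm1, are not established. The probe set covers the whole gene on chromosome 19 (5549137 to 5560575, minus strand). Ovol2, which maintains the epithelial state, was 3.43 in SOX2 KO and 3.56 in WT control (chromosome 2, 144305175 to 144332146, minus strand). Both Ovol2 values lay between the floor and the background level, so no fold is given, and a fall of this gene would not be visible.

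Of the late factors, Zfp750 was level and Prdm1 lower. Zfp750, whose human orthologue ZNF750 drives terminal differentiation downstream of p63, was 6.57 in SOX2 KO and 6.48 in WT control (chromosome 11, 121510976 to 121519342, minus strand). The difference of 0.09 was exceeded or matched by 79.3% of genes above the floor, and it turned to -0.065 under quantile scaling. Prdm1, which encodes the repressor BLIMP1 of the upper, differentiating layers and of plasma cells, was 3.81 in SOX2 KO and 4.38 in WT control (chromosome 10, 44437175 to 44528501, minus strand). The deposited difference of -0.57, 1.48-fold lower, was matched or exceeded by 11.8% of genes above the floor. The SOX2 KO value lay just under the background level, against which Prdm1 was at least 1.45-fold lower. Prdm1 is also expressed in lymphoid and myeloid cells. Of 5 leukocyte markers 2 passed the floor, and both were higher in SOX2 KO. Lyz2, the lysozyme gene of myeloid cells, was 4.54 in SOX2 KO and 2.80 in WT control, at least 1.62-fold higher, and Cd68, a lysosomal protein gene of macrophages and other cells, was 7.39 in SOX2 KO and 7.18 in WT control. The other 3, Ptprc, Cd3e and Itgam, were below background in both arrays. The part of such cells in the Prdm1 values was not tested.

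**Figure D2:**
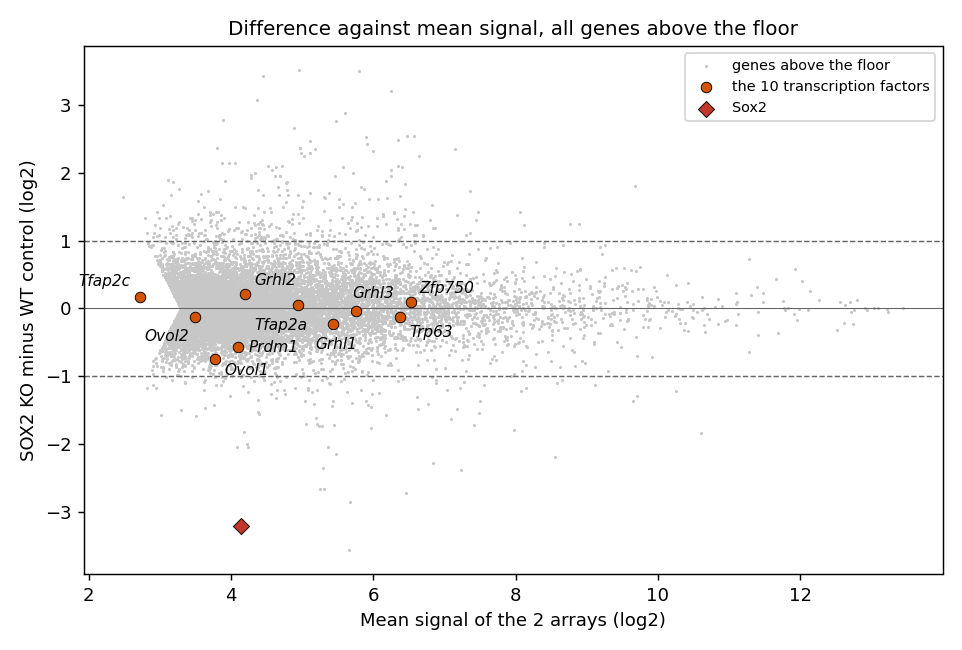
SOX2 KO minus WT control log2 difference (y axis) against the mean log2 signal of the 2 arrays (x axis) for genes above the floor (grey), the 10 transcription factors (orange, with Tfap2c, which is below the floor) and Sox2 (diamond); dashed lines mark 2-fold. All 10 factors lie between the dashed lines, with Ovol1 at -0.75, while Sox2 lies at -3.21. The SOX2 KO values of Sox2, Ovol1 and Prdm1 are below background, so their points are deposited differences and not exact sizes.

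**Figure D3:**
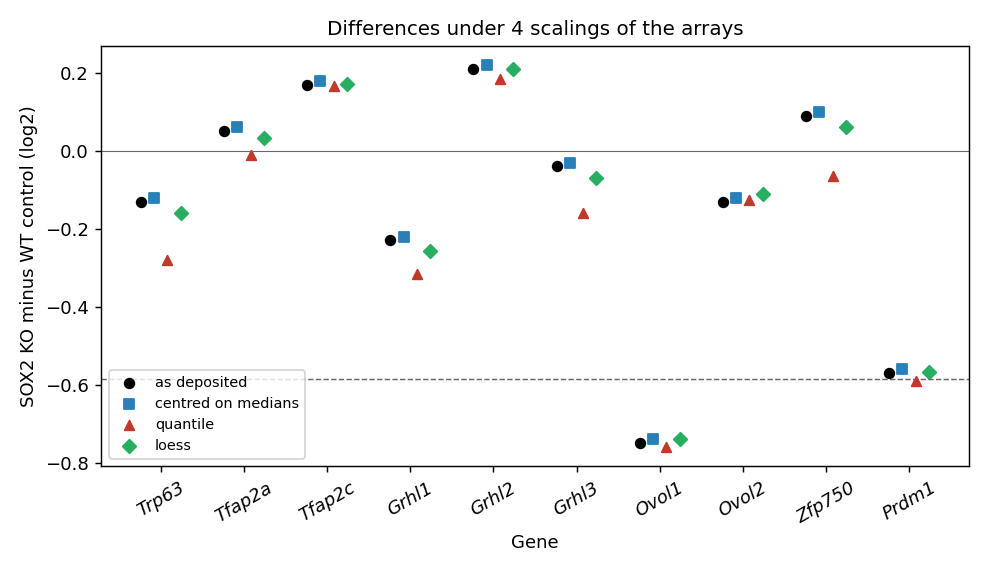
SOX2 KO minus WT control log2 difference (y axis) of each factor (x axis) as deposited and after 3 other scalings of the arrays, 1 array per group; the dashed line marks 1.5-fold lower. Quantile scaling moves the brighter genes down, takes Tfap2a and Zfp750 below 0 and Prdm1 just past the dashed line, and the Ovol1 point stays below the others under each scaling.

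Genes known to depend on p63 differed little. Of 18 listed genes 17 had a probe set of their own and 15 passed the floor, of which 7 were higher and 8 lower in SOX2 KO, with a median of -0.06. At 2-fold, 0 were higher and 0 lower, beside 2.01% and 0.795% of all genes, so a count of 0 among 15 is near these shares. The basal keratin genes Krt5 (8.71 in SOX2 KO and 8.86 in WT control) and Krt14 (8.19 in SOX2 KO and 8.16 in WT control) were close to equal, as was the desmosome gene Perp (9.43 in SOX2 KO and 9.50 in WT control). The largest differences were those of 2 basement membrane adhesion genes, Lama3 (5.29 in SOX2 KO and 4.65 in WT control, 1.56-fold higher) and Col17a1 (6.33 in SOX2 KO and 5.96 in WT control). Genes that p63 is known to hold down were not higher on balance. Of these 4, Igfbp3, which encodes a binding protein for insulin-like growth factors, was 6.28 in SOX2 KO and 6.92 in WT control, and the cell cycle inhibitor gene Cdkn1a 7.73 in SOX2 KO and 8.14 in WT control. The median of the 4 was -0.26.

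Genes driven by grainyhead-like factors were lower on balance, by small amounts. All 16 passed the floor, 5 were higher and 11 lower in SOX2 KO, and the median was -0.23, against 0.00 for all genes. At 2-fold, 0 differed, beside 2.01% of all genes higher and 0.795% lower. At 1.5-fold, 4 were lower and 0 higher as deposited, where 4.43% of all genes were lower and 6.45% higher. Tgm1, the transglutaminase that crosslinks the cornified envelope, was 6.43 in SOX2 KO and 7.33 in WT control, 1.87-fold lower. Tgm5, a further transglutaminase, was 3.27 in SOX2 KO and 4.12 in WT control, at least 1.21-fold lower against the background level. The desmosomal cadherin gene Dsg1a was 3.80 in SOX2 KO and 4.53 in WT control, at least 1.61-fold lower, and the splicing regulator gene Esrp1 5.47 in SOX2 KO and 6.08 in WT control, 1.53-fold lower. The adhesion genes Cdh1 (8.18 in SOX2 KO and 8.48 in WT control) and Epcam (6.69 in SOX2 KO and 6.34 in WT control) differed in opposite directions. Tgm1 is also a late differentiation gene, so its value belongs to both lists.

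Genes held down by OVOL factors were mostly near background. Of 10 listed genes 9 had their own probe set and 6 passed the floor, 3 higher and 3 lower in SOX2 KO, with a median of 0.095. This median was -0.05 with no floor. The furthest were the matrix gene Fn1 (3.73 in SOX2 KO and 3.0 in WT control) and the intermediate filament gene Vim (3.90 in SOX2 KO and 3.41 in WT control), both of which fibroblasts and smooth muscle cells also express. For Fn1 both values lay below the background level. Myc and Id2, both on the list of genes held down by OVOL factors, differed in opposite directions. Myc was 8.35 in SOX2 KO and 8.68 in WT control, and Id2 was 7.03 in SOX2 KO and 6.56 in WT control. The mesenchymal regulators Snai1 and Twist1 did not pass the floor. Snai2, which basal keratinocytes also express, was 7.85 in SOX2 KO and 8.28 in WT control.

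Among the partners of ZNF750, Klf4 differed and the cofactors did not. Klf4, a transcription factor of squamous differentiation that ZNF750 activates in human keratinocytes, was 4.58 in SOX2 KO and 6.30 in WT control, 3.29-fold lower. The repressor and demethylase genes Kdm1a (5.10 in both arrays), Rcor1 (5.13 in SOX2 KO and 5.05 in WT control), Ctbp1 (4.85 in SOX2 KO and 4.94 in WT control) and Ctbp2 (4.10 in SOX2 KO and 4.24 in WT control) lay within the receptor SD. The 5 genes had a median of -0.09, and the mean was -0.37 because of Klf4. Of 7 genes for proteins that bind AP-2 factors, 3 were higher and 4 lower, with a median of -0.13. Past 2-fold were 0, beside 2.01% of all genes higher and 0.795% lower. The acetyltransferase genes Ep300 (6.38 in SOX2 KO and 5.89 in WT control) and Crebbp (7.17 in SOX2 KO and 6.68 in WT control) were higher, and Kctd15, whose product inhibits AP-2 alpha, was lower (3.97 in SOX2 KO and 4.58 in WT control, 1.53-fold). Of 6 genes that PRDM1 is known to repress, mainly in B cells, 5 passed the floor, 2 higher and 3 lower, with a median of -0.13. Past 1.5-fold were 0, near the shares of all genes (6.45% higher and 4.43% lower) for so few genes. The furthest were the B cell gene Pax5, below background at 3.03 in SOX2 KO and 3.38 in WT control, and Myc, given above.

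**Figure D4:**
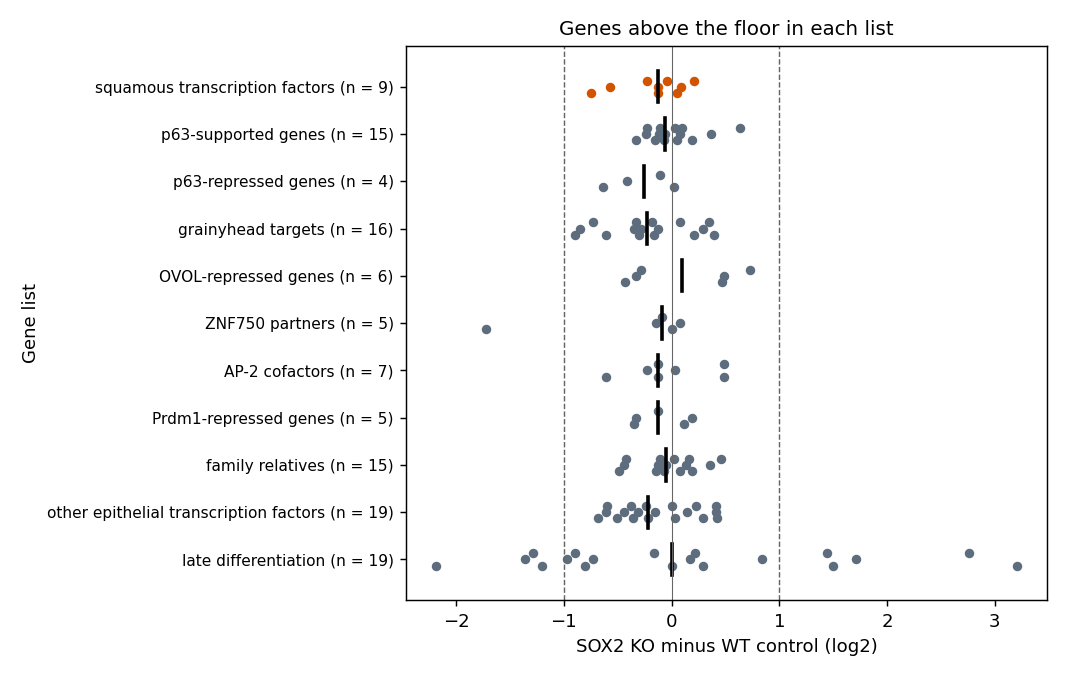
SOX2 KO minus WT control log2 difference (x axis) of each gene above the floor (points), by list (rows), with the list median as a black bar and dashed lines at 2-fold. The squamous transcription factors lie between -0.75 and 0.21, while late differentiation genes run from -2.19 to 3.21 and the ZNF750 row holds 1 far point, Klf4.

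Family relatives and other epithelial factors also stayed within 2-fold as deposited. Of 23 relatives in the p53, grainyhead, OVO, AP-2 and PRDM families, 15 passed the floor, 7 higher and 8 lower in SOX2 KO. By 1.5-fold 0 differed, beside 6.45% of all genes higher and 4.43% lower. Among so few genes a count of 0 is near these shares. The furthest were Prdm11 (3.24 in SOX2 KO and 3.73 in WT control) and Mecom, a PRDM-type zinc finger gene. Both Prdm11 values lay below the background level. Mecom was 4.03 in SOX2 KO and 3.57 in WT control, at least 1.14-fold higher. Trp53, which encodes p53, was 5.73 in SOX2 KO and 5.60 in WT control. Of 25 further transcription factors of squamous epithelium, 24 had their own probe set and 19 passed the floor, of which 7 were higher and 11 lower, with a median of -0.22. At 1.5-fold, 3 were lower and 0 higher as deposited, beside 4.43% and 6.45% of all genes. These were Elf5 (3.39 in SOX2 KO and 4.07 in WT control, at least 1.17-fold lower), an ETS factor of epithelial differentiation, Cebpb (4.70 in SOX2 KO and 5.31 in WT control), a factor of keratinocyte cell cycle exit, and Gata3 (4.10 in SOX2 KO and 4.70 in WT control), a factor of skin and hair lineages. Pax9, a factor of the foregut squamous lining, was 3.62 in SOX2 KO and 4.06 in WT control, at least 1.16-fold lower. It was named after its values were seen.

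The late differentiation genes spread far more widely than the factors. Of 21 genes 19 passed the floor. By 2-fold or more as deposited, 5 were higher and 4 lower in SOX2 KO, beside 2.01% and 0.795% of all genes. The 5 higher genes were Krt10, Krt1, Lor, Tgm3 and Flg, led by Krt10 at 7.86 in SOX2 KO and 4.65 in WT control. The WT control value of Tgm3, 3.30, lay below background, and against that level Tgm3 was at least 1.94-fold higher. The 4 lower genes were Sprr3, Krt13, Cnfn and Alox12b, led by Sprr3 at 7.46 in SOX2 KO and 9.65 in WT control. The median of the list was 0.00, the same as over all genes, and the range ran from -2.19 to 3.21, beside -0.75 to 0.21 for the 10 transcription factors. The range of the factors is a deposited one, as falls of Ovol1 and Prdm1 beyond their bounds, or of Ovol2 and Tfap2c, would not be visible. The list was also chosen with earlier results of these data known, so the wider spread is a description only. These values come from the same 2 arrays as those of the factors and share their limits.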

How the data were processed

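Total RNA of dissociated organoids was labelled with the WT Plus assay and hybridized to 1 Affymetrix Mouse Gene 2.0 ST array per group. The authors used Transcriptome Analysis Console for normalization (version and summarization not given in the sources used here) and deposited log2 probe set signals with 2 decimals, annotated on mm10. Their own fold change, p-value and FDR columns were not used. The series value table held the same values (0 differed). Of 34472 probe sets, 29971 carried 1 gene symbol; for the 383 genes with more than 1 probe set the one of highest mean was taken. A difference is SOX2 KO minus WT control. Where the dimmer array lay below the 95th percentile of olfactory receptor values, that percentile took its place and the fold is a lower bound, written "at least". Levels of different probe sets are not comparable. Groups came from the genotype labels. The number of arrays limits precision.

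Members and lists were chosen with earlier results of these data known. Named genes were the 10 factors, Sox2 and, of each list of related genes (not the cell type markers), genes past 2-fold and the 2 with the largest difference above the floor. Pax9, single markers and further list members given as examples, were named by choice. Alternatives were 3 other scalings (median, quantile, loess with span 0.3), removal of the floor, its use on both arrays, averaged probe sets, only genes with 1 probe set, a 3-fold threshold, means for medians and the series value table. Counting was tested on simulated data. Python 3.11.15, pandas 2.3.3 and statsmodels 0.14.6 were used. Some items are not reported here.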

Additional observations from a re-analysis of the deposited data

How the results depend on the processing

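No paired analysis was possible because there was 1 array in each group, and none could be left out. A floor at the olfactory receptor level, the count with dimmer values raised to that level and the fibroblast sum without Dcn were chosen after the data were seen. With no replicates, a value was taken to have moved if it shifted by the receptor SD of 0.26, and a count if it passed 1.5 times. Of 248 values under the alternatives 245 stayed within these limits, but many of them could not move. The series value table, for example, held the same values. A reversal was counted only for a log2 difference of at least 1, which only Sox2 had, and Sox2 did not reverse. Under quantile scaling 2 factors in place of 1 were at least 1.5-fold lower, Prdm1 joining Ovol1 at -0.59, and with dimmer values raised to the background level 0 were. The mean of the ZNF750 partners was -0.37 in place of a median of -0.09, because of Klf4. The Ovol1 difference ran from -0.76 to -0.74, that of Prdm1 from -0.59 to -0.56 and that of Trp63 from -0.28 to -0.12. Tfap2a and Zfp750 changed sign under quantile scaling. Small list medians also changed sign for the p63-supported genes (0.01 as a mean), the OVOL-repressed genes and the family relatives (0.145 at the furthest). Each factor had 1 probe set, so only the scalings could move its difference. Signals at or under 3.84 (Ovol2 and Tfap2c in both arrays) cannot show a fall.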

Other observations

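No listed transcription factor shared a probe set with another gene (0 of 10). Zeb2, a mesenchymal regulator held down by OVOL factors, was measured only on a probe set shared with Mir5129, and the shared signal was 3.72 in SOX2 KO and 3.55 in WT control.

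The nearest 2 genes above the floor on each side of the 10 factors, 40 in all, had a median difference of -0.035. Past 2-fold were 0, beside 2.01% of all genes higher and 0.795% lower. By 1.5-fold or more, 1 was higher and 2 were lower, beside 6.45% and 4.43% of all genes above the floor. The 4 neighbours of Ovol1 ran from -0.27 to 0.24 beside -0.75 for Ovol1, and those of Prdm1 from -0.32 to 0.06, beside -0.57 for Prdm1. The 2 lower neighbours both lie after Trp63: P3h2, a collagen prolyl hydroxylase gene (-0.64), and Cldn1, the tight junction gene of the epidermal barrier (-0.66). Trp63 itself differed by -0.13. These neighbours were chosen by position, after the values of the factors were seen.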
